A study of Mus musculus with 18 samples.

Results

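*Sh3pxd2b* is the first gene downstream of the topologically associating domain (TAD) that holds the mouse α-globin locus, and its contacts with that locus were followed here along the whole gene. The gene (ENSMUSG00000040711.7, + strand, mm9 chr11:32247820-32328173, 13 exons) was taken with 1 kb before its start, which gave a window of 81354 bp. DpnII cuts this window into 171 fragments of the 295450 on chromosome 11, with a median length of 357 bp. Of these fragments, 144 lie in introns and 25 overlap an exon. The gene was chosen by its contact counts in ∆44/48 against WT, which were higher in ∆44/48, so those values are given as a description, with no test. The other mutants were measured in a separate experiment, whose values did not set the choice, and they were tested. Earlier results of these data were known when the gene was chosen, so those tests may not be wholly free of the choice.

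*Sh3pxd2b* encodes TKS4, a scaffold protein with a PX domain and SH3 domains that takes part in the formation of podosomes and invadopodia. Contacts between enhancers and promoters are densest within a TAD, and CTCF, a DNA-binding protein that halts the loop-extruding cohesin complex, often sits at TAD edges. A gene just beyond an edge is therefore where contacts that pass the edge can be counted.

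NG Capture-C (hereafter Capture-C) cross-links chromatin, cuts it with DpnII, ligates neighbouring ends and enriches the ligation products of chosen fragments, the viewpoints. All 18 samples were Ter119+ erythroid cells from the spleens of adult C57BL/6 mice (C57BL/6J in the methods) that had been treated with phenylhydrazine, a drug that provokes the production of red cells. Experiment 1 compared WT with mice lacking the CTCF sites HS+44 and HS+48 downstream of the locus (labelled D4448, here ∆44/48). Experiment 2 compared WT with mice in which the CTCF sites at the θ-globin genes *Hbq1b* (θ1, between the α-globin genes) and *Hbq1a* (θ2, just past both) were mutated, singly (Dtheta1, here ∆θ1, and Dtheta2, here ∆θ2) or together (Dt1t2, here ∆θ1/θ2). All mutations were homozygous, made with CRISPR-Cas9, and each group had 3 samples. The reads are of genomic DNA, so the labelled cell type could not be checked against marker genes. The methods call samples of a group biological replicates, but the labels only number them, so p-values measure the spread between these samples, which may be partly technical.

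The viewpoints were HS38, a CTCF site at the upstream edge of the locus, 108.8 kb before the *Sh3pxd2b* start, the α-globin enhancers R1 (101.3 kb) and R2 (95.9 kb), and the 2 α-globin promoters Hba-1 (64.0 kb) and Hba-2 (51.2 kb). The promoter counts were summed as Hba-1/2. Experiment 2 was analysed from Hba-1/2 alone. The total number of counts was 345162 to 1120609 a sample in experiment 1 and 8820 to 232346 in experiment 2, with the 3 ∆θ1 samples the shallowest at 8820 to 22935. ∆44/48 replicate 1 was the shallowest of experiment 1 and stood apart, with a mean of 1.76 counts per fragment hit on other chromosomes where the rest had 1.21 to 1.23. The β-globin and *Slc25A37* viewpoints, which lie on other chromosomes, placed only 0 to 6 counts a sample on the window, too few to compare groups.

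The start of the gene is shown because the DpnII fragment that holds it (chr11:32247537-32247844, 308 bp) stood out from HS38. The part before the transcription start is given from its DpnII site, on the + strand of mm9 (chr11:32247535-32247819, 285 bases), with the DpnII site GATC and the GC box GGGCGG, searched on both strands, in capitals.
Sh3pxd2b start: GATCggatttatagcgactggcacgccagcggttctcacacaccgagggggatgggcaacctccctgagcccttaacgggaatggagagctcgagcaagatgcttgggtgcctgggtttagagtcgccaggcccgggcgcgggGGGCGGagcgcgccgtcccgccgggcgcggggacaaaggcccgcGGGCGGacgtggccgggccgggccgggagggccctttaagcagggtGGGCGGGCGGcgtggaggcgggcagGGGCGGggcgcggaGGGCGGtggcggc
The stretch is 74% G and C and holds 35 CG dinucleotides, a number reached by 5.63% of the 1653 protein-coding promoters of chromosome 11 taken at the same length. It holds 6 copies of GGGCGG, 2 of which overlap each other, and 41.6% of those promoters hold at least 1. TATAAA, searched on both strands, occurs once, as it does at least once in 13.8% of the promoters, and 45.9% hold a GATC. The letters AGATAA, which GATA factors can bind, do not occur in it, and 10.5% of the promoters hold them. These are matches of letters only.

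In WT cells of experiment 1 the *Sh3pxd2b* window took a small part of each viewpoint's contacts on chromosome 11 (contacts in cis). Levels are given below as contact density, the counts per kb of window per 100000 counts in cis. From HS38 the density was 17.0, 17.1 and 18.6 in the 3 WT samples (17.6 ± 0.893, SD). From Hba-1/2 it was 10.34, 11.05 and 11.26 (10.9 ± 0.481), from R1 9.01, 9.85 and 10.7 (9.87 ± 0.870) and from R2 6.80, 8.74 and 9.24 (8.26 ± 1.29). The highest level thus came from the farthest viewpoint, the CTCF site HS38, and its samples did not overlap those of any other viewpoint. Hba-1/2 and R1 overlapped each other, as did R1 and R2, so the order of R1 against either is within the spread between samples. All Hba-1/2 samples lay above all R2 samples. In sum, the window received 1.38 to 1.51% of the contacts of HS38 in cis and 0.553 to 0.752% of those of R2.

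**Figure D1:**
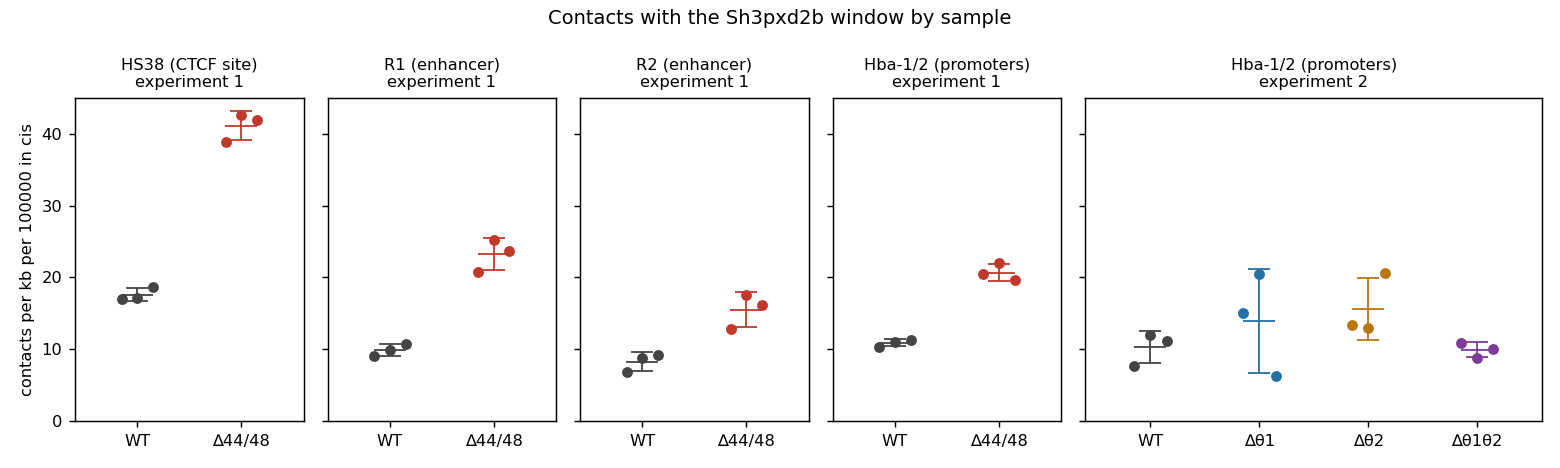
Contact density of the *Sh3pxd2b* window (vertical axis, counts per kb per 100000 in cis) in every sample, with the group mean ± SD of 3 samples, by viewpoint and experiment. The ∆44/48 samples lie above all WT samples from each viewpoint, and in experiment 2 the ∆θ1 samples are spread from 6.20 to 20.5.

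In ∆44/48 cells the density was higher from every viewpoint, and no ∆44/48 sample overlapped WT. From HS38 it was 38.8, 42.7 and 41.9 (41.1 ± 2.02), 2.34-fold that of WT. From R1 it was 20.8, 25.2 and 23.6 (23.2 ± 2.22), 2.35-fold that of WT. The CTCF site and the R1 enhancer therefore showed the same size of difference, though HS38 started from a higher level. From R2 the density was 12.8, 17.5 and 16.2 (15.5 ± 2.44), 1.88-fold that of WT. From Hba-1/2 it was 20.4, 21.9 and 19.7 (20.7 ± 1.16), 1.90-fold. In the order of levels HS38 was again first and R2 last, and R1 and Hba-1/2 overlapped between them. HS38 placed 3.16 to 3.47% of its contacts in cis on the gene.

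These differences were the basis of the choice of the gene, so their background is given without a reading. All 3 ∆44/48 samples lay above all 3 WT samples for 5.63% of the 1119 genes with at least 10 counts from HS38, 6.37% from R1, 6.54% from R2 and 6.25% from Hba-1/2. The median log2 difference of all those genes was 0.01 from HS38, 0.05 from R1, 0.07 from R2 and 0.08 from Hba-1/2, against 1.23, 1.23, 0.91 and 0.93 for *Sh3pxd2b*. A larger log2 difference than that of *Sh3pxd2b* was found for 89 of 1119 genes from HS38 and 94 of 1084 from R1. From R2 it was found for 167 of 1193 genes and from Hba-1/2 for 226 of 1599. With TMM scaling in place of the counts in cis, which lowers every gene by 0.17 to 0.24 on the log2 scale, the 4 values for *Sh3pxd2b* were 1.05, 1.03, 0.67 and 0.75. Leaving out any one sample, ∆44/48 replicate 1 included, gave 1.20 to 1.27 from HS38 and 0.88 to 0.96 from Hba-1/2.

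Along the gene, WT contacts were densest near the start, dipped, and rose again before the end. The gene was cut into 16 bins from 1 kb before to 79 kb after the start. From HS38 the density in 5 kb bins was 25.2 ± 2.30 in the bin over the start and 36.4 ± 5.86 in the next, which was the highest of the 16 bins. It was 7.23 ± 0.783 in the seventh bin, from 29 to 34 kb after the start, 18.4 ± 3.64 in the eleventh and 4.35 ± 0.760 in the last. The profile was alike from the other viewpoints. Over the 16 bins, Pearson's r between the WT profiles of any 2 viewpoints was 0.925 to 0.962 (these share libraries and fragments), and for Hba-1/2 it was 0.864 between the WT groups of the 2 experiments.

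The ∆44/48 profile kept this outline at a higher level. From HS38 the first bin had 64.8 ± 6.28, the second 82.6 ± 14.5, the seventh 20.9 ± 8.20 and the last 16.1 ± 2.20. From Hba-1/2 the first bin went from 16.4 ± 0.339 in WT to 30.9 ± 1.54 and the last from 3.76 ± 0.401 to 7.30 ± 1.53. The mean was higher in ∆44/48 in 16 of 16 bins from each viewpoint. All ∆44/48 samples lay above all WT samples in 15 of 16 bins from HS38, where 5.86% of all bins tested on the chromosome did so. The number was 16 of 16 from R1 (6.17% of all bins), 10 of 16 from R2 (5.21%) and 15 of 16 from Hba-1/2 (4.93%). Over the bins the log2 ratio of means ran from 0.72 to 1.89 from HS38 and from 0.49 to 1.40 from Hba-1/2.

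**Figure D2:**
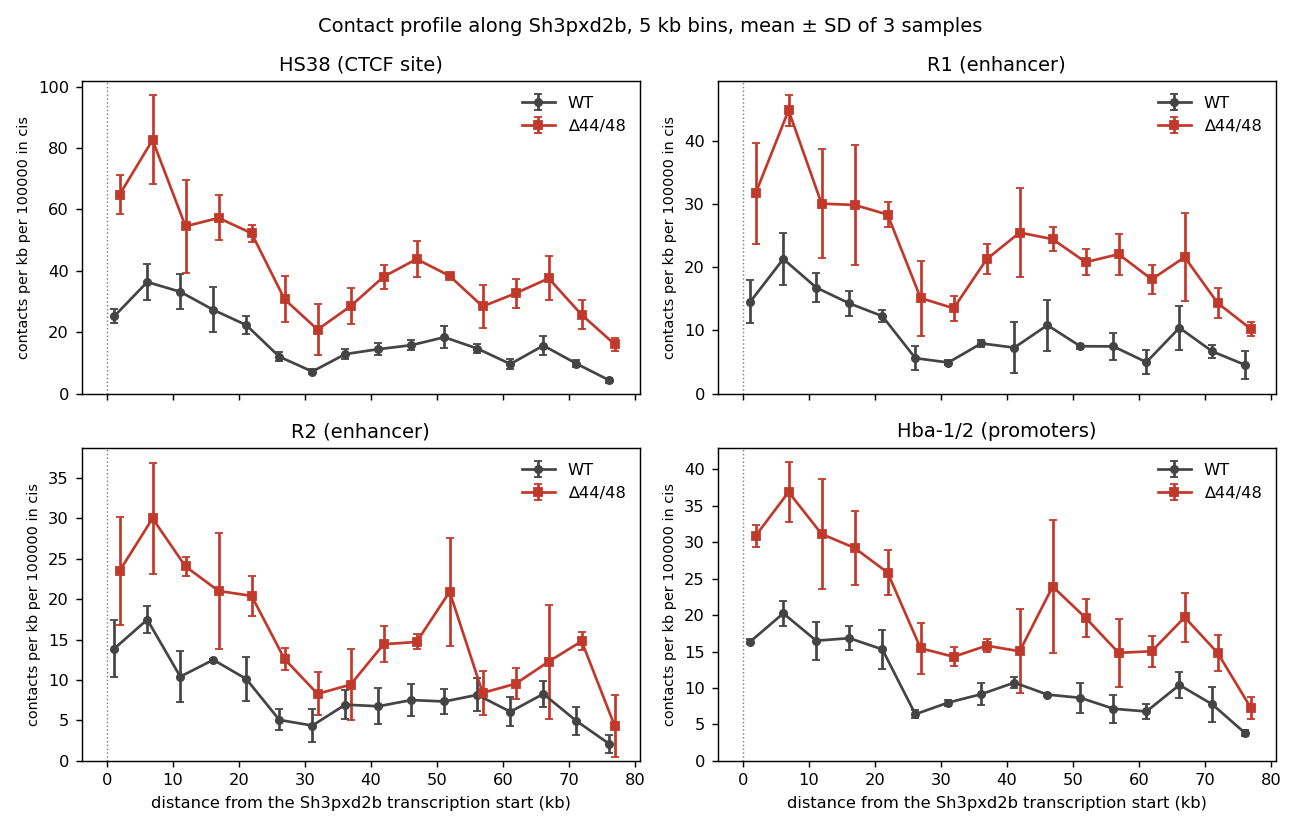
Contact density in 5 kb bins (mean ± SD of 3 samples) against the distance from the *Sh3pxd2b* start, one panel per viewpoint, with its own vertical scale. The WT and ∆44/48 curves have the same outline, and the ∆44/48 mean is the higher one in all 16 bins of each panel.

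Whether the start of the gene differed from its end was asked by the log2 ratio of density in the first 40.7 kb to that in the second 40.7 kb. From HS38 this ratio was 0.75, 0.72 and 0.91 in WT and 0.47, 0.71 and 0.58 in ∆44/48. From Hba-1/2 it was 0.78, 0.65 and 0.84 in WT and 0.68, 0.63 and 0.64 in ∆44/48. The mean was lower in ∆44/48 from each viewpoint, with differences of −0.30 to −0.09, though leaving out one sample took it to 0.048 from R2. The groups did not overlap from HS38 and overlapped from the other viewpoints.

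The window was then set against its surroundings. The flank, the 45.9 kb between the end of *Hbq1a*, the θ-globin gene nearest to it, and the window, had a density of 208 ± 5.79 in WT from HS38 and 173 ± 8.25 in ∆44/48. Relative to that flank, the log2 ratio of *Sh3pxd2b* was −3.57 ± 0.11 for WT and −2.07 ± 0.01 for ∆44/48. The same ratio from Hba-1/2 was −3.60 ± 0.10 and −2.38 ± 0.18. The step down from flank to gene was thus smaller in ∆44/48 from both. The flank itself was lower in ∆44/48 (log2 difference −0.27 from HS38 and −0.30 from Hba-1/2), which is part of this. The deleted sites were not mapped here and may lie in the flank, so it is not a neutral reference. A window of equal length at the same distance on the other side of HS38, away from the globin genes, had a density of 11.1 ± 1.07 in WT and 9.42 ± 1.15 in ∆44/48. WT contacts of HS38 with *Sh3pxd2b* were therefore 0.67 ± 0.07 higher on the log2 scale than on that side, and those of ∆44/48 2.13 ± 0.11 higher. The same log2 ratio was 0.17 ± 0.16 in WT and 1.48 ± 0.16 in ∆44/48 from R1, and −0.18 ± 0.14 and 1.02 ± 0.13 from R2, so in WT it was above 0 from HS38 and below 0 from R2. From Hba-1/2, whose mirrored window lies inside the locus, it was −3.23 ± 0.03 and −2.03 ± 0.13.

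In 10 kb bins the sign of the ∆44/48 difference changed within the flank. The paper describes contacts of HS38 moving from the deleted sites to the CTCF sites that come next downstream. Which bins hold these sites was not tested. In the bin centred 25 kb before the *Sh3pxd2b* start the mean density from HS38 was 254 in WT and 139 in ∆44/48. In the bin centred 15 kb before it, it was 103 and 119, and in the bin centred 5 kb before it, 52.2 and 118. The log2 ratio was −0.86, 0.21 and 1.18 in these bins. The gene itself therefore lay wholly on the side where contacts were higher, and its first 10 kb, with 30.6 and 71.1, differed about as much as the stretch just before it. From R1, R2 and Hba-1/2 the change of sign fell between the same bins. Beyond the gene the log2 ratio stayed above 0, with a median from HS38 of 1.41 over the 11 bins from 80 to 190 kb after the start and of 1.19 over the next 11 bins.

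**Figure D3:**
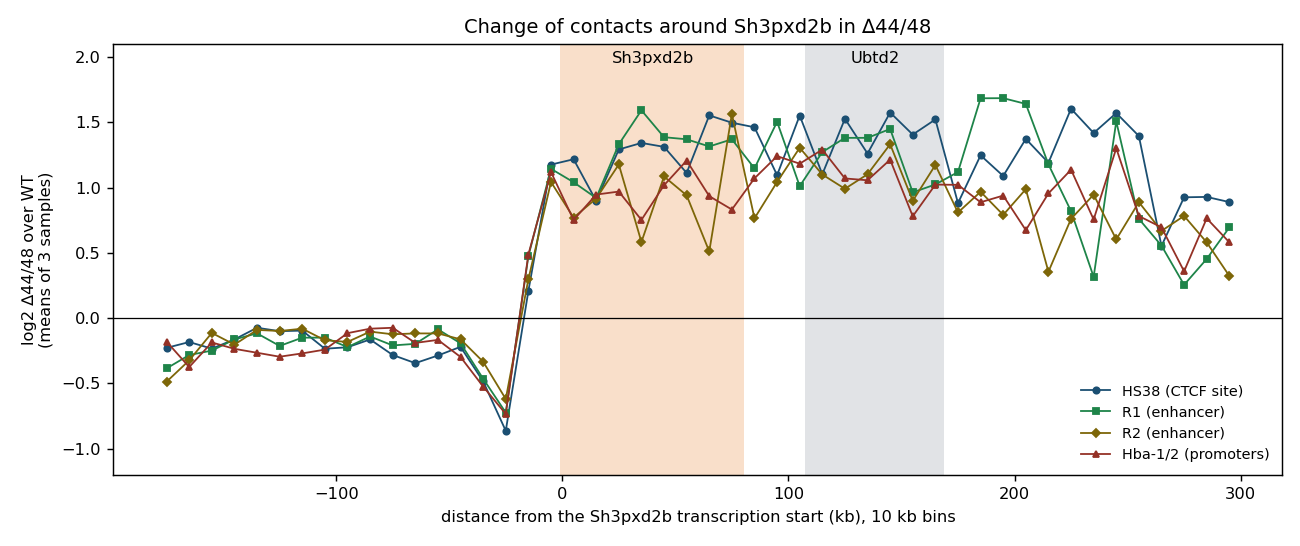
Log2 ratio of the ∆44/48 mean to the WT mean (3 samples each) in 10 kb bins against the distance from the *Sh3pxd2b* start, for 4 viewpoints, with *Sh3pxd2b* and *Ubtd2* shaded. The ratio is below 0 in the bin centred 25 kb before the start (−0.86 from HS38), above 0 in the next, and stays above 0 through both genes.

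*Ubtd2*, which encodes a ubiquitin-domain protein, is the next gene along (chr11:32355370-32416687, 27.2 kb past the end of *Sh3pxd2b*). Its density from HS38 was 9.65 ± 0.286 in WT and 25.5 ± 2.23 in ∆44/48, a 2.63-fold difference. From Hba-1/2 it was 6.64 ± 0.422 and 14.4 ± 1.60, or 2.16-fold. *Sh3pxd2b* stood above *Ubtd2* in both genotypes and from each viewpoint, by a mean log2 ratio of 0.60 to 0.86 in WT and 0.45 to 0.69 in ∆44/48. The higher contacts were thus shared with the gene behind it. Of 23 other genes within 1 Mb with a mean of at least 20 counts over the samples from Hba-1/2, *Ubtd2* and *Efcab9* (the latter named after its value was seen) had a larger log2 difference than *Sh3pxd2b*, with 1.11 for *Ubtd2* against 0.93.

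Genes whose contacts with the α-globin promoters varied most like those of *Sh3pxd2b* over the 18 samples, each taken relative to the WT of its experiment, all lay downstream. They were *Stk10*, a serine/threonine kinase gene (Pearson's r = 0.64, Spearman's rho = 0.59), *Ranbp17*, which encodes a Ran-binding protein (0.63 and 0.55), and *Ubtd2* (0.50 and 0.45). By Spearman's rho *Npm1* (0.554) ranked just above *Ranbp17* (0.546), and *Fbxw11* (0.509) above *Ubtd2*. All these coefficients describe counts that share libraries and their depth, and they include the ∆44/48 samples.

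Single fragments were sparse. Of the 171 fragments, 165 had at least 10 counts over the 6 samples of experiment 1 from HS38, 141 from R1, 133 from R2 and 164 from Hba-1/2. All ∆44/48 samples lay above all WT samples for 68 of the 165 from HS38 (10.1% of all fragments tested), 42 of 141 from R1 (8.13%), 22 of 133 from R2 (6.33%) and 52 of 164 from Hba-1/2 (5.25%). They lay below for 1 fragment from R2 (6.85% of all) and 2 from Hba-1/2 (6.47%). The count of a fragment went with its length (Spearman's rho = 0.49 from HS38 and 0.62 from Hba-1/2 over 171 fragments). The count per base went little with G and C content (0.09 and 0.13) and was lower farther from the start of the window (−0.55 and −0.53). Fragments in introns had a WT density from HS38 of 19.0 and those that overlap an exon 9.40, and in ∆44/48 these were 43.0 and 28.7. The 144 intron fragments cover 63.25 kb and the 25 with an exon 18.29 kb, so the latter are longer on average. Length and position were not matched, so whether exons themselves matter was not tested.

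The fragment that holds the start, printed above in part, had the largest difference from HS38 among fragments whose groups did not overlap. It had 16.7, 18.6 and 4.55 counts per 100000 in cis in the WT samples and 57.7, 48.0 and 55.7 in ∆44/48, from 28 and 79 counts in all. From R1 it had 10.5, 4.64 and 8.80 against 35.8, 14.2 and 20.2, so these groups did not overlap either. From R2 and Hba-1/2 they did, with 4.28, 11.9 and 11.2 in WT and 9.33, 23.9 and 21.7 in ∆44/48 from Hba-1/2. The fragment just before it (chr11:32246951-32247536, 586 bp) was the one with the most WT counts from HS38 and from Hba-1/2. From Hba-1/2 it had 20.0, 18.2 and 20.9 in WT and 56.0, 38.7 and 35.7 in ∆44/48, the largest difference without overlap from that viewpoint.

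Further in, the intron fragment chr11:32248866-32249286 had 16.7, 21.2 and 18.2 from HS38 in WT and 88.8, 56.3 and 28.6 in ∆44/48, with replicate 1, the shallowest, the highest. The intron fragment chr11:32252025-32252650 had 21.2, 13.3 and 31.8 against 53.3, 76.2 and 46.7. Both lie within 5 kb of the start, in the first bin of the profile or next to it. Taken from the enhancers, the fragments with the largest difference and no overlap lay elsewhere, at chr11:32286733-32288456, an exon-bearing fragment, from R1 and at chr11:32258097-32259642, in an intron, from R2. The former had 3.51, 3.10 and 3.52 in WT and 61.4, 12.2 and 18.4 in ∆44/48 (6 and 28 counts in all), with replicate 1, the library that stands apart, far above the others. The latter had 1.44, 2.57 and 11.6 in WT and 26.3, 23.3 and 22.7 in ∆44/48 (11 and 33 counts in all), with the ∆44/48 samples close together. The fragment over the gene end (chr11:32326130-32329071) had a mean of 7.27 in WT and 31.7 in ∆44/48 from HS38, but 7.93 and 4.10 from Hba-1/2, where no ∆44/48 sample lay above any WT sample.

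In experiment 2 the question was whether the θ CTCF sites bear on these contacts. No comparison passed the test, which does not show that the levels were alike. Density from Hba-1/2 was 7.71, 12.02 and 11.11 in WT (10.3 ± 2.27), 15.0, 20.5 and 6.20 in ∆θ1 (13.9 ± 7.22), 13.3, 13.0 and 20.6 in ∆θ2 (15.6 ± 4.29) and 10.9, 8.81 and 10.0 in ∆θ1/θ2 (9.92 ± 1.05). The ∆θ2 samples all lay above WT, the ∆θ1 samples fell on both sides of it, and the ∆θ1/θ2 samples lay within its range. Of the window fragments with a count, 42.9 to 85.7% a sample in experiment 2 were listed under both promoters, and 83.3 to 97.6% in experiment 1. On other chromosomes the share in experiment 2 was 48.4 to 63.7%, at a mean of only 1.05 to 1.28 counts per fragment hit. Whether a molecule can be counted under both is not given in the sources used here. With so few counts per fragment, the Hba-1/2 sums may hold many molecules more than once, and no correction was made.

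For ∆θ1 the 3 values rested on 65, 59 and 10 counts (31, 28 and 6 from Hba-1 and 34, 31 and 4 from Hba-2). Their exact Poisson 95% intervals were 11.6 to 19.1, 15.6 to 26.4 and 2.97 to 11.4, for counting error only. The intervals take each count as a separate molecule, and are too narrow if molecules were counted under both promoters. The log2 fold change to WT was 0.49 (SE 0.25, adjusted p = 0.500 by edgeR's quasi-likelihood test over 636 genes). It was −0.62 with TMM scaling, which moved the median of all genes by −1.04, and relative to that median *Sh3pxd2b* stood at 0.51 in the one and 0.44 in the other. Without ∆θ1 replicate 2 the log2 fold change was 0.16 and without replicate 3 it was 0.77. A difference was therefore not detectable at this depth.

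For ∆θ2 the log2 fold change was 0.59 (SE 0.19, adjusted p = 0.486 by edgeR over 938 genes). All 3 ∆θ2 samples lay above WT (exact permutation test of log2 density, two-sided, p = 0.1, the smallest that 3 against 3 allows), as they did for 6.4% of the genes tested. Without ∆θ2 replicate 3, the highest sample, the value was 0.35. For ∆θ1/θ2 the log2 fold change was −0.05 (SE 0.18, adjusted p = 0.999 by edgeR over 828 genes), with the samples inside the WT range. These comparisons and that of ∆θ1 share the 3 WT samples.

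∆θ1/θ2 and ∆θ2 were compared directly, since they differ in the θ1 site. The log2 fold change of ∆θ1/θ2 to ∆θ2 was −0.64 (SE 0.16, adjusted p = 0.0859 by edgeR over 903 genes), and each ∆θ1/θ2 sample lay below each ∆θ2 sample, as for 7.97% of the genes. This missed the threshold of 0.01. It passed when library sizes were taken from the 1 Mb around the viewpoint (−0.72, adjusted p = 0.00383 by edgeR), and without ∆θ2 replicate 3 it was −0.40 (adjusted p = 0.972). Over all alternatives the adjusted p ran from 0.00383 (edgeR) to 0.998 (DESeq2), and the log2 fold change stayed below 0. With the counts in cis as library size, edgeR called no gene of the chromosome in any of the 4 comparisons (0%), where 34 to 54 genes had an unadjusted p below 0.05. The unadjusted p of *Sh3pxd2b* by edgeR was 0.045 for ∆θ1, 0.0016 for ∆θ2 and 0.77 for ∆θ1/θ2. For ∆θ1/θ2 against ∆θ2 it was 9.5e-05. DESeq2, with its own size factors, called 1 gene for ∆θ1 and 0 for the others. With TMM scaling edgeR called 9 genes for ∆θ1, *Sh3pxd2b* not among them.

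**Figure D4:**
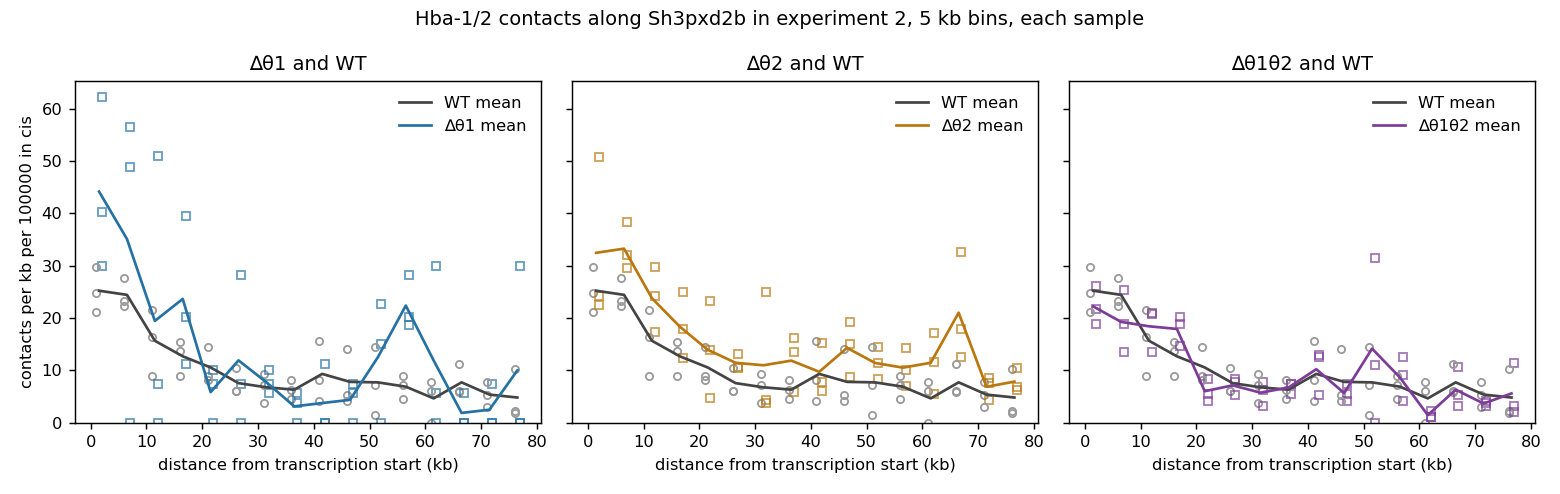
Hba-1/2 contact density in 5 kb bins against the distance from the *Sh3pxd2b* start in experiment 2, with each sample as a symbol (circles WT, squares the mutant) and the group means as lines. The ∆θ1 symbols scatter from 0 to 62.2, and the ∆θ1/θ2 mean lies on both sides of the WT mean (log2 ratio −1.67 to 0.88 over the bins).

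Along the gene, 0 of the 16 bins passed in any of the 4 comparisons by edgeR. Of all bins tested, 0.206% passed for ∆θ1, 0% for ∆θ2, 0.118% for ∆θ1/θ2 and 0% for ∆θ1/θ2 against ∆θ2. At an unadjusted p below 0.05 by edgeR there were 0, 2, 0 and 4 of the 16 bins in that order, where 5.14%, 4.25%, 4.09% and 5.82% of all bins were, and DESeq2 also called 0. In the bin over the start the density was 24.8, 21.1 and 29.8 in WT, 30.0, 62.2 and 40.3 in ∆θ1, 24.2, 22.5 and 50.8 in ∆θ2 and 21.7, 18.8 and 26.2 in ∆θ1/θ2. In the next bin, from 4 to 9 kb after the start, the ∆θ2 samples had 29.5, 32.0 and 38.3, all above the 23.3, 22.3 and 27.7 of WT. The ∆θ1/θ2 samples had 25.4, 13.6 and 18.9 there, all below ∆θ2. For ∆θ2 the mean was higher than WT in 16 of 16 bins, and all samples lay above WT in 2 (6.9% of all bins). For ∆θ1 all samples lay above WT in 2 bins (2.57%) and below it in 1 (24.2%), and for ∆θ1/θ2 in 0 bins either way (4.98% above and 4.56% below). For ∆θ1/θ2 against ∆θ2 all samples lay below in 6 of 16 bins (8.44% of all bins). Of the window's fragments 29 to 96 had enough counts to be tested, and 0 passed by edgeR or DESeq2. By edgeR 3 of 29, 5 of 96, 1 of 63 and 10 of 95 had an unadjusted p below 0.05 in the same order, against 12.4%, 7.42%, 5.47% and 8.06% of all fragments tested.

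The log2 ratio of the first to the second part was 1.48, 0.61 and 1.18 in WT, 0.31, 1.68 and 2.00 in ∆θ1, 0.72, 1.00 and 0.68 in ∆θ2 and 0.98, 0.84 and 0.80 in ∆θ1/θ2. The groups overlapped, and against WT the exact permutation p was 0.7, 0.4 and 0.5, in a design that cannot go below 0.1. The flank had a density of 139 ± 3.20 in WT, 177 ± 8.09 in ∆θ2 and 180 ± 8.78 in ∆θ1/θ2. Relative to the flank, *Sh3pxd2b* was at −3.78 ± 0.33 in WT, −3.57 ± 1.02 in ∆θ1, −3.53 ± 0.44 in ∆θ2 and −4.19 ± 0.19 in ∆θ1/θ2 on the log2 scale (exact permutation p = 0.8, 0.6 and 0.3). The lowest mean against the flank was thus that of ∆θ1/θ2, with 2 of its 3 samples inside the WT range, and all 3 lay below those of ∆θ2 (difference −0.66, exact permutation p = 0.1).

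**Figure D5:**
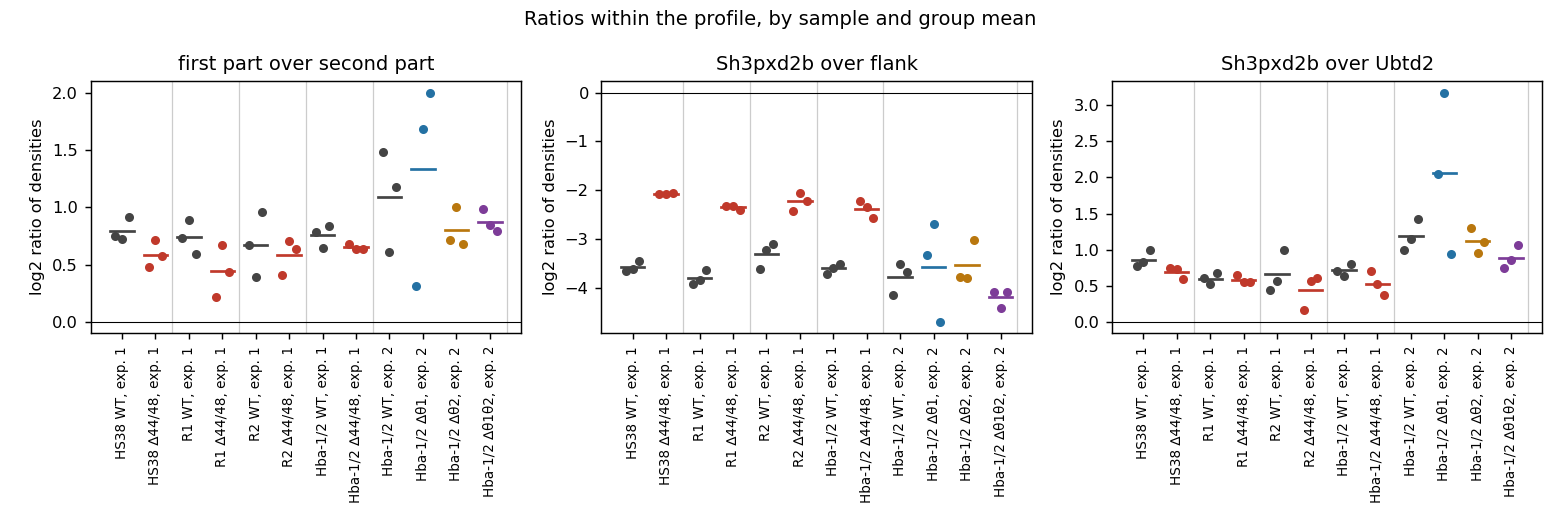
Log2 ratios of contact density in each sample (points) with group means (lines): the first to the second part of *Sh3pxd2b*, the gene to its flank, and the gene to *Ubtd2*. In the middle panel the ∆44/48 samples of each viewpoint lie above WT (mean −2.07 against −3.57 from HS38), while the θ mutants overlap WT.

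*Ubtd2* in experiment 2 had a density of 4.47 ± 0.841 in WT, 3.04 ± 0.694 in ∆θ1, 7.21 ± 2.11 in ∆θ2 and 5.38 ± 0.952 in ∆θ1/θ2. The log2 ratio of *Sh3pxd2b* to *Ubtd2* was 1.19 ± 0.22 in WT, 2.06 ± 1.12 in ∆θ1, 1.12 ± 0.17 in ∆θ2 and 0.89 ± 0.16 in ∆θ1/θ2 (exact permutation p against WT = 0.4, 0.6 and 0.2). In ∆θ1 *Ubtd2*, with 12, 5 and 4 counts, lay below WT in 3 of 3 samples (exact permutation p = 0.1), as 21.4% of the genes did in this shallow group, where *Sh3pxd2b* did so in 1 of 3. *Sh3pxd2b* stood above its neighbour in all 12 samples of experiment 2, as it did in experiment 1.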

How the data were processed

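Capture-C interaction counts of 18 samples were used. The authors trimmed reads with Trim Galore, joined them with FLASH, cut them at DpnII sites, aligned them with Bowtie to mm9 and removed PCR duplicates. They deposited unique interaction counts per viewpoint and DpnII fragment, not normalized, and a list of the viewpoint fragments of each experiment (other values than counts). Fragment positions were checked against the NCBIM37 (mm9) genome, from which the sequence was read, and genes came from GENCODE M1. *Sh3pxd2b*, its comparison windows and the gene lists were chosen with earlier results of these data known.

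Rows that sum both promoters were dropped. Counts within 1 kb of a viewpoint's own fragments (in experiment 1 also of HS38 and HS39) and in other viewpoint fragments were left out, and the remaining counts on chromosome 11 gave the library size. Genes (body and 1 kb before the start), 5 kb bins and fragments with at least 10 counts over the samples compared were tested with edgeR 4.0.16 (quasi-likelihood, Benjamini-Hochberg adjustment, threshold 0.01), in R 4.3.3. The standard error was taken from the test statistic. Ratios and single values were tested by exact permutation. Named genes were *Sh3pxd2b*, *Ubtd2* and the 3 genes within 1 Mb with the highest Pearson's r, and named fragments those at the start and end, with the most WT counts, or the 3 with the largest difference from each viewpoint and no overlap, of which some are given. Alternatives were TMM, DESeq2 1.42.0, other library sizes, zones, bins, filters and left-out samples. The steps were tested on simulated counts, where edgeR made no false call but recovered few of the changes put in at the depth of experiment 2, so a comparison there that did not pass says little. Samples of a group differed by more than sampling noise in all but 2 of 18 pairs (both of ∆θ1, the shallowest), so all were kept apart. Same-numbered samples did not deviate together, so the numbers were not used as pairs.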

Additional observations from a re-analysis of the deposited data

How the results depend on the processing

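With TMM scaling the ∆44/48 log2 differences of *Sh3pxd2b* were 1.05 (HS38), 1.03 (R1), 0.67 (R2) and 0.75 (Hba-1/2), and 1.02 with counts within 1 Mb as library size from Hba-1/2. Leaving out one sample gave 1.20 to 1.27, 1.17 to 1.31, 0.77 to 1.04 and 0.88 to 0.96. The first-to-second-part difference ranged from −0.27 to −0.15 (HS38), −0.41 to −0.19 (R1), −0.23 to 0.048 (R2) and −0.16 to −0.07 (Hba-1/2). In experiment 2 the ∆θ1 value turned to −0.62 with TMM and ranged from 0.16 to 0.77 with one sample left out. That of ∆θ1/θ2 turned to 0.032 with DESeq2 and ranged from −0.22 to 0.082. The ∆θ1/θ2 against ∆θ2 value was −0.72 (adjusted p = 0.00383 by edgeR) with counts within 1 Mb, over a range of −0.76 to −0.40 without one sample, and 1 of its bins passed at 10 kb width. With one sample left out, the ∆θ1 differences ranged from −0.091 to 0.75 (first to second part), −0.23 to 0.77 (to the flank) and −0.21 to 0.60 (to the mirrored window), and that of ∆θ2 to the flank from −0.0056 to 0.38. The cause of these changes was not tested. Of 406 alternative values, 387 were classed as the same, 12 as reversed, 6 as moved and 1 as stronger. The ∆44/48 values had no threshold to cross, and few changes could pass it at the depth of experiment 2. These numbers therefore say little about stability.

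With the replicate number as a block the log2 fold changes were 0.41 (∆θ1), 0.59 (∆θ2), −0.03 (∆θ1/θ2) and −0.62 (∆θ1/θ2 against ∆θ2), and no call changed. Same-numbered samples correlated at −0.30 to 0.21 over 65 genes.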
